A study of Mus musculus with 30 samples.

Results

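The response to imeglimin in brown adipose tissue (BAT) was set against that in sWAT, by its usual meaning subcutaneous white fat, in C57BL/6N mice. All were given HFD, which usually stands for a diet high in fat, with or without imeglimin, an oral glucose-lowering drug. The comparison used 20 of the 30 libraries of the series, which were those of the fat tissues, and the 10 liver libraries were not used. There were 5 libraries of BAT with HFD and imeglimin, 5 of BAT with HFD, 5 of sWAT with HFD and imeglimin, and 5 of sWAT with HFD. The labels give no age, sex, dose or length of treatment, and every mouse carries the same HFD and strain label. The series' own design text speaks of 4 and 4, but 5 libraries are labelled in each group and all 5 were used. Whether each library is a different mouse is not labelled, and p-values reflect only how far these libraries spread, which may be technical. The imeglimin libraries carry the numbers 86, 88, 89, 91 and 94 and the HFD libraries the numbers 75, 76, 79, 80 and 83, in both tissues, and values below are listed in that order.

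The response of a gene is its log2(scaled TPM + 1) with imeglimin minus that with HFD within a tissue. TPM is a length-corrected share of a library, and scaled TPM is the deposited TPM after scaling within each tissue. The response difference is the BAT response minus the sWAT response, so that a negative value means a lower response in BAT. The mean response is the average over both tissues, and a large response in 1 tissue alone can be enough for a call. In all, 11076 genes reached 1 TPM in at least 5 libraries of each tissue and were tested with limma, with a separate spread for each tissue and adjustment over all genes.

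Brown adipocytes burn fatty acids and glucose to make heat through the uncoupling protein UCP1, whereas white adipocytes store triglyceride and secrete hormones such as leptin. Both build fatty acids from cytosolic citrate, and both need glycerol 3-phosphate as the backbone of triglyceride. That backbone comes from glucose through the cytosolic enzyme GPD1 or from pyruvate through PCK1, a route called glyceroneogenesis, and the mitochondrial enzyme GPD2 oxidises it again.

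The tissue labels fitted the marker genes. Ucp1 stood at 5611, 4646, 4524, 5343 and 4335 scaled TPM in imeglimin BAT and at 4910.1, 4658, 3623, 5631 and 4318 in HFD BAT, and no sWAT library exceeded 1.57. It was therefore not among the genes tested in both tissues. Lep, the leptin gene, ranged over 1272 to 5639 scaled TPM in imeglimin sWAT and 4734 to 6016 in HFD sWAT, and no BAT library exceeded 111. Some libraries stood apart. In sWAT imeglimin library 88 the summed B cell markers reached 1623 scaled TPM, against 2.09 to 4.26 in the other imeglimin sWAT libraries, and the summed hepatocyte markers reached 19999.7, against 431 to 1704. Its summed adipocyte markers were 13371, against at least 22216 in every other sWAT library. In BAT, the summed skeletal muscle markers reached 6395 in imeglimin library 94 and 6174 in HFD library 79, against 16.1 to 826 in the other 8. Mitochondrially encoded transcripts made up 38.8% ± 0.139 of TPM in imeglimin BAT and 38.6% ± 1.59 in HFD BAT, and 11.9% ± 0.776 in imeglimin sWAT and 13.3% ± 1.51 in HFD sWAT (SD, n = 5). The difference between those responses was 1.64 percentage points (two-sided exact permutation p = 0.140 over 63504 assignments). In tissue pieces, fewer cells of a type and less RNA per cell cannot be told apart. Values without library 88 are given beside many of the results.

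Few genes passed the test of a different response. Of the 11076 genes, 4 were called, or 0.0361%: Gpd2, Abca2 and Pck1 had negative response differences (0.0271%) and Gpr135 a positive one (0.00903%). At an unadjusted p under 0.05 there were 1490 genes (13.5%), 827 with a positive (7.47%) and 663 with a negative response difference (5.99%). The median standard error of a response difference was 0.162, and the median 95% interval reached 0.340 to either side, so smaller differences were not resolved for most genes. Without sWAT library 88 there were 101 calls among 11043 genes (0.915%), 42 positive (0.380%) and 59 negative (0.534%), and these included the same 4 genes. With unscaled TPM there were 57 calls, 3 positive and 54 negative, around a median difference of -0.16 for all genes. Across the 11076 genes, each a point from the same 20 libraries, the BAT and sWAT responses had a Pearson correlation of 0.219, and of 0.122 without library 88, given as a description.

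**Figure D1:**
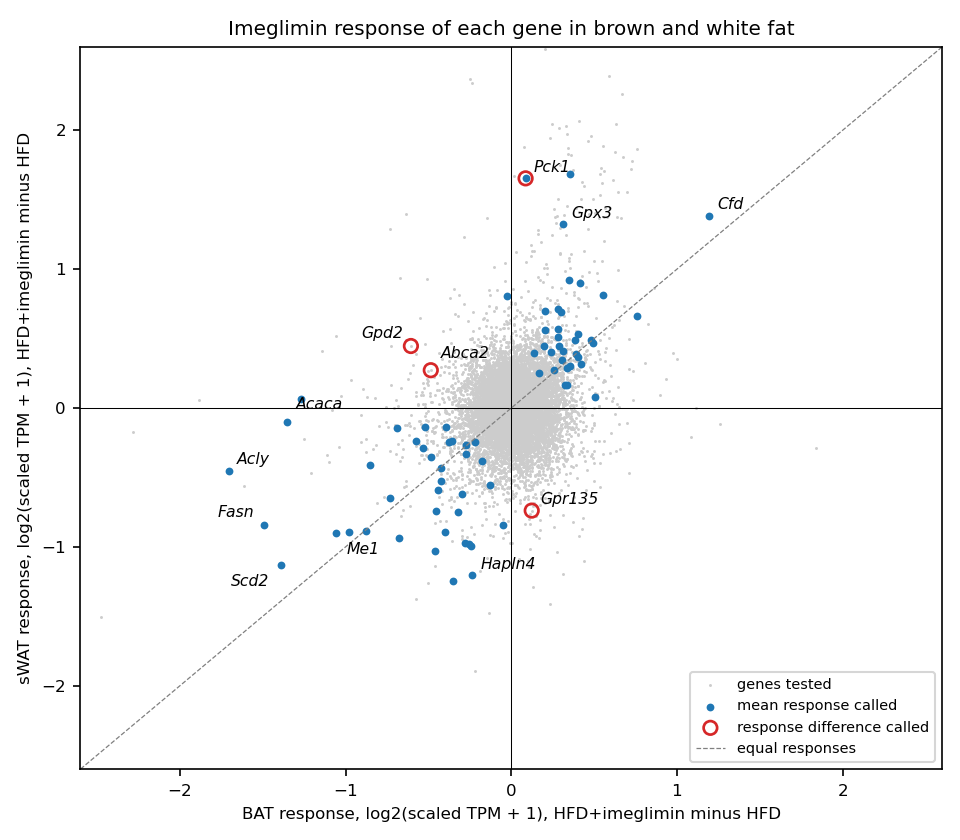
Each point is a gene tested, with its BAT response on the x axis and its sWAT response on the y axis, both as log2(scaled TPM + 1) with HFD and imeglimin minus HFD. Blue points had a called mean response (73 genes), red circles a called response difference (4 genes), and 1 gene lies outside the axes of 2.6 to either side.

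Pck1 encodes the cytosolic phosphoenolpyruvate carboxykinase that feeds glyceroneogenesis. It stood at 1530.0, 1627, 1498, 1378 and 1216 scaled TPM in imeglimin BAT, against 1772, 1413, 1357, 942 and 1445 in HFD BAT, and at 1121, 1915, 1373, 1897 and 1227 in imeglimin sWAT, against 480.0, 418, 555, 306 and 646 in HFD sWAT. In BAT the groups overlapped. In sWAT every imeglimin library lay above every HFD library. The BAT response was 0.087 (SE 0.146) and the sWAT response 1.65 (SE 0.222, limma adjusted p = 0.0773 within sWAT). The response difference was -1.57 (95% interval -2.12 to -1.01, limma adjusted p = 0.0327), and without library 88 it was -1.48 (adjusted p = 0.0229). Its mean response was also called (0.87, adjusted p = 0.00643), the 1 gene called in both tests. In the deposited annotation (GRCm39) the gene lies on chromosome 2 at 172994841 to 173001066.

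The 250 bases before the start of Pck1 are shown because it had the largest called response difference and a promoter studied in detail in rodents, with a cyclic AMP response element. The sequence is RefSeq's for the build GRCm38.p6, which is not the build of the deposited table, at chr2:173152823-173153072, plus strand, 5′ to 3′ on the gene's strand. Capitals mark the match to TTACGTCA, searched on both strands.
Pck1: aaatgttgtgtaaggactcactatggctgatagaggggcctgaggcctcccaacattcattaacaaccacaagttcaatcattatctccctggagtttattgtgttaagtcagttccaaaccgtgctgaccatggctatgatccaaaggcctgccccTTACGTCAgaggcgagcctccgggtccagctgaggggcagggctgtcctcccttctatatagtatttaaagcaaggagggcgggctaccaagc
The match lies 93 to 86 bases before the start. The same motif occurs in 147 of 32851 RefSeq mouse promoter windows of this length (0.447%), and a match describes the letters only.

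Gpd2 had responses of opposite sign in the 2 tissues. It encodes the mitochondrial glycerol 3-phosphate dehydrogenase, which hands electrons from glycerol 3-phosphate to the respiratory chain. In imeglimin BAT it stood at 208, 248, 169, 159.7 and 145 scaled TPM, against 249.8, 288, 262, 314 and 282 in HFD BAT. In imeglimin sWAT it stood at 16, 21, 21.1, 23.4 and 17.2, against 16.7, 12.8, 14.8, 14 and 12.5 in HFD sWAT. The BAT groups did not overlap, although imeglimin library 88 came close to HFD library 75, and in sWAT imeglimin library 86 lay below 1 HFD library. The BAT response was -0.61 (SE 0.134) and the sWAT response 0.45 (SE 0.116). The response difference was -1.05 (95% interval -1.42 to -0.68, limma adjusted p = 0.0327), and -1.03 without library 88 (adjusted p = 0.0222). Within each tissue alone the response missed the threshold (limma adjusted p = 0.0986 in BAT and 0.267 in sWAT). The gene lies on chromosome 2 at 57127647 to 57260731 in GRCm39.

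Its cytosolic partner Gpd1, which makes glycerol 3-phosphate, did not share this pattern. Gpd1 stood at 3227, 3005, 2663, 2713 and 2321 scaled TPM in imeglimin BAT, against 3363, 4017, 3256, 4643 and 3664 in HFD BAT, and at 1499, 740.2, 1227, 1476 and 1479 in imeglimin sWAT, against 1747, 1557, 1965, 1987 and 2169 in HFD sWAT. In both tissues all 5 imeglimin values lay under all 5 HFD values. The BAT response was -0.44 and the sWAT response -0.59, with a called mean response of -0.52 (limma adjusted p = 0.0493) and a response difference of 0.15 (95% interval -0.33 to 0.64). Without library 88 the mean response was -0.42 (limma adjusted p = 0.00843) and the response difference -0.040. The 250 bases before the first of the 2 annotated starts of Gpd2 (RefSeq, GRCm38.p6, chr2:57237428-57237677, plus strand) are given for comparison with Pck1, and held no match to TTACGTCA, CCAAT or CACGTG on either strand, so there are no capitals.
Gpd2: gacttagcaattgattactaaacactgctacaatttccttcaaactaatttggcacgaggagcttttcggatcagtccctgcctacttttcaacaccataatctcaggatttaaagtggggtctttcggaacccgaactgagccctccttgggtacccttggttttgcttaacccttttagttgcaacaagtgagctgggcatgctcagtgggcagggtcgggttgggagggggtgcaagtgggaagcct

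Abca2 encodes an ABC transporter of endosomal and lysosomal membranes with a role in lipid handling. It stood at 23.2, 26.3, 20.1, 18.5 and 19.2 scaled TPM in imeglimin BAT, against 29.5, 35.2, 28.2, 31.2 and 27.4 in HFD BAT, and at 28.1, 33.4, 30.2, 29.8 and 29 in imeglimin sWAT, against 28.3, 22.3, 23.6, 23.5 and 26.3 in HFD sWAT. The BAT groups did not overlap, and the sWAT groups overlapped through imeglimin library 86 and HFD library 75 alone. Its responses were -0.49 (SE 0.102) in BAT and 0.27 (SE 0.0823) in sWAT, with a response difference of -0.76 (95% interval -1.03 to -0.49, limma adjusted p = 0.0327). Without library 88 the difference was -0.72 (adjusted p = 0.0222). In GRCm39 Abca2 lies on chromosome 2 at 25318715 to 25338552.

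Gpr135, an orphan G protein-coupled receptor gene, had the 1 called positive response difference. It stood at 4.81, 4.08, 4.07, 5.43 and 4.33 scaled TPM in imeglimin BAT, against 4.05, 4.00, 3.67, 4.65 and 4.00 in HFD BAT, and at 5.59, 4.05, 5.72, 6.29 and 4.26 in imeglimin sWAT, against 9.42, 8.50, 8.70, 9.92 and 9.56 in HFD sWAT. The sWAT groups were far apart and the BAT groups overlapped. Its responses were 0.12 (SE 0.0834) in BAT and -0.74 (SE 0.117) in sWAT. The response difference was 0.86 (95% interval 0.56 to 1.16, limma adjusted p = 0.0327), and 0.79 without library 88 (adjusted p = 0.0222). In GRCm39 the gene lies on chromosome 12 at 72114750 to 72117899.

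**Figure D2:**
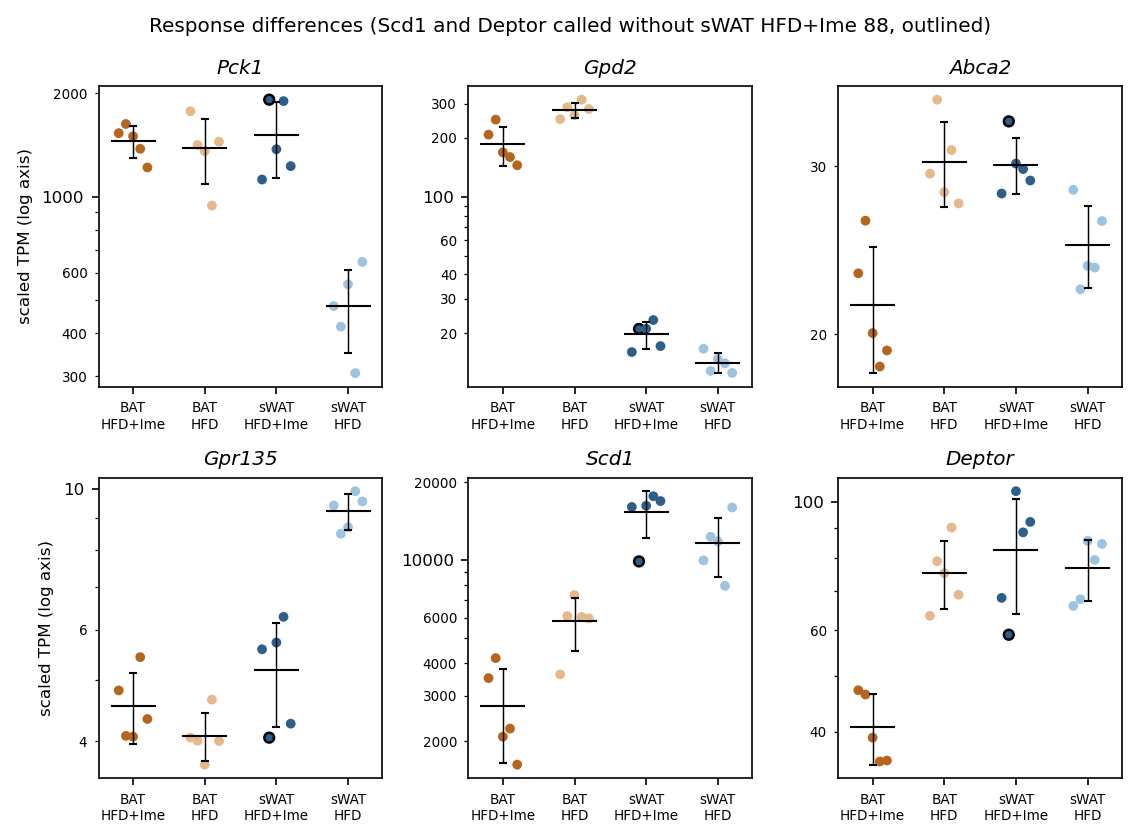
Scaled TPM per library on log axes in imeglimin and HFD BAT and in imeglimin and HFD sWAT for genes with a called response difference, with Scd1 and Deptor called without sWAT imeglimin library 88 (outlined) but not with all 20 libraries. Bars give the mean and SD of 5 libraries, and the sWAT imeglimin points of Pck1 lie at 1121 or above while the sWAT HFD points lie at 646 or below.

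Leaving out sWAT library 88 added Scd1 and Deptor to the calls, among others. Of the 101 calls, 95 had responses of opposite sign, 55 lower in BAT and higher in sWAT and 40 the reverse. The other 6 had the same sign in both tissues. A call on the difference favours responses of opposite sign, so these counts only describe the calls. Within single tissues limma called 5 genes in BAT and 1 in sWAT in that setting. Scd1, the main stearoyl-CoA desaturase gene of fat, stood at 3507, 4191, 2084, 2239 and 1625 scaled TPM in imeglimin BAT, against 3624, 6092, 7342, 6045 and 5963 in HFD BAT. In imeglimin sWAT it stood at 16074, 9903, 16253, 17689 and 16941, against 9995, 12320.0, 11829, 7967 and 15994 in HFD sWAT. Library 88 was the low one of the imeglimin sWAT libraries, and the other 4 lay above every HFD sWAT library. The response difference was -1.55 with all libraries (limma adjusted p = 0.0997) and -1.71 without library 88 (95% interval -2.38 to -1.04, adjusted p = 0.0248), from a BAT response of -1.14 and a sWAT response of 0.57.

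Groups that overlapped in neither tissue and had responses of opposite sign were found for 4 of 11076 genes, 2 of them lower in BAT and higher in sWAT (0.0181%) and 2 higher in BAT and lower in sWAT (0.0181%). Rab5if and C1qtnf12 were those of the second kind. Rab5if had 0.19 in BAT and -0.19 in sWAT, and C1qtnf12, which encodes a secreted protein of the C1q and TNF family, had 0.21 in BAT and -0.39 in sWAT. Both names were chosen after their values were seen, and the count is a description.

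Deptor, whose product binds and inhibits the kinase mTOR, fell in BAT. It stood at 47.2, 46.4, 39, 35.5 and 35.6 scaled TPM in imeglimin BAT, against 63.5, 79, 75.3, 90.3 and 69.1 in HFD BAT, and at 68.2, 58.9, 104, 88.6 and 92.4 in imeglimin sWAT, against 66.1, 67.8, 85.7, 79.4 and 84.6 in HFD sWAT. The BAT groups were well separated and the sWAT groups overlapped. The BAT response was -0.87 (SE 0.111, limma adjusted p = 0.0376), and the response difference was -0.96 (adjusted p = 0.0671), or -1.07 without library 88 (adjusted p = 0.0222).

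Further genes with the lowest p for a response difference missed the threshold with all libraries, with limma adjusted p-values between 0.0587 and 0.0999. On the positive side they included Scarb1, the HDL receptor gene (0.25 in BAT and -0.38 in sWAT), and Slc6a6, the taurine transporter gene (0.13 in BAT and -0.71 in sWAT). Fbln7, a matrix gene of the fibulins, had 0.28 in BAT and -1.04 in sWAT, and the mitochondrial ribosomal protein gene Mrpl41 had 0.35 in BAT and -0.23 in sWAT. The ubiquinone synthesis gene Coq7 had 0.21 in BAT and -0.34 in sWAT. Among negative differences were Pdpr, which encodes the regulatory subunit of pyruvate dehydrogenase phosphatase (-0.59 in BAT and 0.31 in sWAT), and Ncor1, a nuclear receptor corepressor gene (-0.25 in BAT and 0.33 in sWAT). Hipk2, a nuclear kinase gene, had -0.97 in BAT and 0.20 in sWAT. Hapln4, a gene of hyaluronan link proteins, was negative in both tissues (-0.24 in BAT and -1.21 in sWAT), its mean response fell (limma adjusted p = 0.00498), and its response difference of 0.97 missed the threshold with all libraries and passed without library 88 (0.95, adjusted p = 0.0436). Without library 88 these response differences passed in the limma test: Scarb1 at 0.56 (adjusted p = 0.0289), Slc6a6 at 0.82 (0.0383), Fbln7 at 1.19 (0.0288), Mrpl41 at 0.49 (0.0229) and Coq7 at 0.49 (0.0436). So did Pdpr at -0.86 (adjusted p = 0.0295), Ncor1 at -0.56 (0.0436) and Hipk2 at -1.23 (0.0323).

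In the main fits more genes were called for the mean response than for the response difference. With the library number taken as a replicate block, both tests had fewer calls, equal in number (given below). The mean response of both tissues was called for 73 of 11076 genes (0.659%), 35 higher (0.316%) and 38 lower (0.343%). Of the 35 that rose, 34 had the same sign in both tissues and 26 had an unadjusted p under 0.05 in each. Of the 38 that fell, 37 had the same sign and 29 an unadjusted p under 0.05 in each. Of these 38, 10 had no overlap between groups in either tissue. A call on the average favours genes of the same sign in both tissues, so these counts only describe the calls. Without library 88 there were 227 calls (2.06%), 117 higher (1.06%) and 110 lower (0.996%), among them 72 of the 73, and with unscaled TPM 30 higher and 209 lower. Within single tissues fewer genes were called: 5 in BAT (0.0451%), all lower, which were Deptor, Tulp4, Ccdc3, Scd2 and Me1, and 1 in sWAT (0.00903%), the complement gene C2, which was higher. C2 stood at 45.7, 45.1, 53.9, 48.5 and 49.2 scaled TPM in imeglimin sWAT, against 28.4, 31.5, 27, 25.8 and 26.4 in HFD sWAT, and its sWAT response was 0.78 (SE 0.0783, limma adjusted p = 0.00964), or 0.81 without library 88. Its BAT response was 0.23, and the response difference of -0.55 missed the threshold (adjusted p = 0.361).

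Fatty acid synthesis held the most called falls in mean response of any list. Of its 15 genes tested, 8 fell in mean response, against 0.343% of all genes, 0 rose, and 11 had negative responses in both tissues. With the library number as a replicate block most of these 8 calls were lost (given below). The median response of the list was -0.90 in BAT and -0.28 in sWAT, against 0.0043 in BAT and 0.012 in sWAT over all genes. Me1, the malic enzyme that supplies NADPH, stood at 87.7, 106, 76, 67 and 75.4 scaled TPM in imeglimin BAT, against 134, 205, 189, 174 and 158 in HFD BAT, and at 471, 210.5, 397, 529 and 503 in imeglimin sWAT, against 672, 596, 831, 755 and 940.1 in HFD sWAT. The groups overlapped in neither tissue. Its mean response was -0.98 (SE 0.138, limma adjusted p = 0.00498), from -1.06 in BAT and -0.90 in sWAT, and -0.86 without library 88 (adjusted p = 1.4e-04). Its call held in all 32 settings tried.

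Scd2, a second desaturase gene, also had no overlap in either tissue. It stood at 17.9, 12.2, 9.36, 11.3 and 11.9 scaled TPM in imeglimin BAT, against 24.2, 36.1, 31.1, 46.3 and 34.3 in HFD BAT, and at 270.0, 96.1, 123, 245 and 186 in imeglimin sWAT, against 289, 319, 361, 451 and 497 in HFD sWAT. The mean response was -1.26 (SE 0.167, limma adjusted p = 0.00453), and the response difference -0.26 (95% interval -0.96 to 0.45), and without library 88 the mean response was -1.16 (adjusted p = 9.8e-04). Scd1 and Scd2 encode closely related enzymes, and their sWAT responses differed in sign (0.41 for Scd1 and -1.13 for Scd2), with Scd1 at the far higher level in TPM, which corrects for length, in both tissues.

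Fasn, the fatty acid synthase gene, stood at 874, 1169, 499, 556 and 389.9 scaled TPM in imeglimin BAT, against 1225, 2294, 1697, 2417 and 1714 in HFD BAT. It stood at 446, 298, 332, 586 and 407 in imeglimin sWAT, against 542, 452, 864, 844 and 1103 in HFD sWAT, where the groups overlapped. Its response was -1.49 in BAT and -0.84 in sWAT, and its mean response was -1.17 (SE 0.195, limma adjusted p = 0.00828), or -1.11 without library 88 (adjusted p = 0.00632). Slc25a1, the mitochondrial citrate carrier gene, had nearly the same response in both tissues (-0.88 in BAT and -0.89 in sWAT, or -0.76 in sWAT without library 88, adjusted p of the mean = 0.0159). Acss2, which activates acetate, had -0.68 in BAT and -0.94 in sWAT (adjusted p of the mean = 0.0239).

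Acly and Acaca, which make the acetyl-CoA and malonyl-CoA used by fatty acid synthase, fell in mean response, with the more negative value in BAT. Acaca stood at 76.5, 88.6, 49, 56.2 and 34.1 scaled TPM in imeglimin BAT, against 108, 176, 138, 193 and 144 in HFD BAT, and at 25.9, 27.9, 32.9, 33.4 and 23.7 in imeglimin sWAT, against 25.1, 25.8, 34.3, 29 and 41.1 in HFD sWAT. The BAT groups were separate and the sWAT groups intermixed, with a response of -1.35 in BAT and -0.10 in sWAT. The response difference was -1.26 (95% interval -1.85 to -0.66), which missed the threshold with all libraries (limma adjusted p = 0.0999) and passed without library 88 (adjusted p = 0.0485). For Acly the responses were -1.71 in BAT and -0.45 in sWAT, with levels of 175 ± 80.2 scaled TPM in imeglimin BAT and 538 ± 158 in HFD BAT (SD, n = 5). Its response difference of -1.25 missed the threshold with and without library 88 (limma adjusted p = 0.190 and 0.0966), while its mean response of -1.08 was called (adjusted p = 0.0159). Of the 15 genes of the list, 12 had negative response differences, 6 of them with an unadjusted p under 0.05 (5.99% of all genes), and 3 had positive ones. By limma 0 were called with all libraries and 2, Scd1 and Acaca, without library 88, where 0.534% of all genes had called negative differences. Of 11 regulators of lipogenesis, 0 were called in limma's test of either kind. For the response difference 2 had an unadjusted p under 0.05, against 13.5% of all genes in either direction. The transcription factor gene Srebf1 had -0.22 in BAT and -0.049 in sWAT, and Mlxipl, which encodes the carbohydrate-responsive factor ChREBP, had -0.10 in BAT and 0.21 in sWAT.

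The windows before the starts of Fasn and Me1 are shown because both genes fell in mean response (RefSeq, GRCm38.p6, chr11:120824548-120824797, minus strand for Fasn and chr9:86695915-86696164, minus strand for the first of the 2 starts of Me1). Capitals mark CCAAT on either strand, which reads ATTGG where it is on the opposite strand.
Fasn: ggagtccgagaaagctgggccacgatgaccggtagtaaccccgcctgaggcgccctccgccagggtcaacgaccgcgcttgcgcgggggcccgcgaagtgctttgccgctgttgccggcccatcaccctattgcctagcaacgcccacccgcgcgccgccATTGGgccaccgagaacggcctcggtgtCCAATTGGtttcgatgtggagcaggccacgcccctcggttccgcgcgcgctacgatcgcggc
Me1: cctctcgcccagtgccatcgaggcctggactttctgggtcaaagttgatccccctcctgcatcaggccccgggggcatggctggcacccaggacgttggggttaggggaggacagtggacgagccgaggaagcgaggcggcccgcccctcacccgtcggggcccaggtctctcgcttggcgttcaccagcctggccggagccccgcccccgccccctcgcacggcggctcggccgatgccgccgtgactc
Fasn held 3 matches to CCAAT, of which 2 overlap on opposite strands, and Me1 held 0. The motif occurs in 33.8% of all windows of this length, and CACGTG, which occurs in 6.02%, was in neither.

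**Figure D3:**
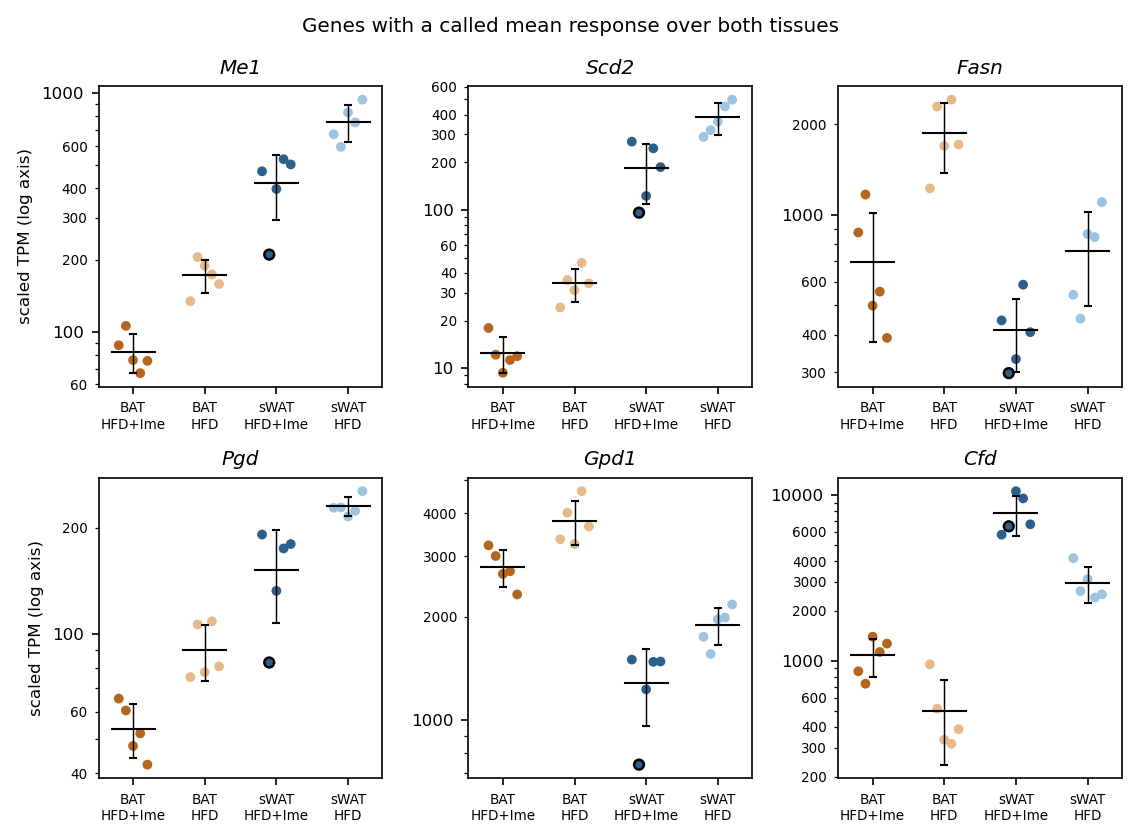
Scaled TPM per library on log axes for 6 genes with a called mean response over both tissues, with the mean and SD of 5 libraries. The outlined sWAT imeglimin library 88 is the lowest of its group for Me1, Scd2, Fasn, Pgd and Gpd1, and Cfd is the gene of the 6 with higher values in imeglimin.

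Pgd of the pentose phosphate pathway and 3 glycolysis genes also fell in mean response. Pgd, whose enzyme is a second source of NADPH, stood at 65.3, 60.4, 47.9, 52 and 42.4 scaled TPM in imeglimin BAT, against 75.2, 106, 77.7, 108 and 80.7 in HFD BAT, and at 191, 82.7, 132, 175 and 179.7 in imeglimin sWAT, against 228, 228, 215, 223 and 254 in HFD sWAT. The groups overlapped in neither tissue, and the mean response was -0.69 (limma adjusted p = 0.0159), or -0.59 without library 88 (adjusted p = 0.00260). Of 20 glycolysis and sugar uptake genes tested, 3 fell in mean response, against 0.343% of all genes, and 0 rose: Pkm (-0.31), Gapdh (-0.30) and Eno1 (-0.41). In BAT these genes are also expressed by muscle, whose 5 tested markers had a median BAT response of -2.28, and whether muscle RNA had a part was not tested. Without the muscle-rich BAT libraries 94 and 79 the median BAT response of the glycolysis list was -0.29, against -0.24 with them, and 1 gene was called. The muscle markers then had a median BAT response of -2.91. Leaving these libraries out therefore did not even out the muscle markers between the groups and cannot decide that question.

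Cholesterol synthesis genes had negative responses in both tissues for 16 of the 20 tested. The list median was -0.16 in BAT and -0.46 in sWAT, the more negative of them in sWAT, where it was -0.42 without library 88. In mean response 4 fell, against 0.343% of all genes, and 0 rose: Nsdhl, Sqle, Lss and Dhcr7, which encode enzymes of the later steps of the pathway. Nsdhl averaged 13.8 ± 1.42 scaled TPM in imeglimin BAT and 16.9 ± 1.78 in HFD BAT, and 35.4 ± 7.36 in imeglimin sWAT and 71.1 ± 19.1 in HFD sWAT (SD, n = 5). Its mean response was -0.62 (limma adjusted p = 0.0176), and its response difference of 0.69 missed the threshold (adjusted p = 0.205). Sqle, the squalene epoxidase gene, had -0.43 in BAT and -0.52 in sWAT. Response differences were positive for 16 and negative for 4 of the 20 genes, with 0 calls. At an unadjusted p under 0.05 there were 2, on the positive side, against 7.47% of all genes on that side.

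Among the shared rises Cfd was the largest. Cfd encodes adipsin, the complement factor D secreted by adipocytes. It stood at 865, 728, 1399, 1131 and 1271 scaled TPM in imeglimin BAT, against 953, 515, 334, 316 and 387 in HFD BAT, and at 5773, 6485, 10566, 9555 and 6666 in imeglimin sWAT, against 4163, 2635, 3111, 2409 and 2519 in HFD sWAT. In BAT the groups overlapped through HFD library 75, and in sWAT they did not overlap. Its responses were 1.19 in BAT and 1.39 in sWAT, with a mean response of 1.29 (SE 0.184, limma adjusted p = 0.00453) and a response difference of -0.19 (95% interval -0.96 to 0.58). Its call held without each library in turn and in 30 of the 32 settings tried, with a highest limma adjusted p of 0.0897. In GRCm39 Cfd lies on chromosome 10 at 79726687 to 79728489.

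Other genes that rose in mean response were Pxmp2, Pex6, Lgals4, Gpx3 and Apoe, among others. Pxmp2, a peroxisomal membrane protein gene, had 0.40 in BAT and 0.53 in sWAT, and Pex6, an ATPase gene of peroxisome assembly, had 0.31 in BAT and 0.41 in sWAT. The limma adjusted p of the mean response was 0.0159 for Pxmp2 and 0.0206 for Pex6. Lgals4, a galectin gene, had 0.38 in BAT and 0.49 in sWAT (adjusted p of the mean = 0.0132). Gpx3, which encodes the extracellular glutathione peroxidase, had 0.31 in BAT and 1.32 in sWAT (adjusted p of the mean = 0.0159), and Apoe, an apolipoprotein gene, had 0.55 in BAT and 0.82 in sWAT (adjusted p of the mean = 0.0392). Apoe and Gpx3 are also made by other cells: in sWAT the hepatocyte markers, highest in library 88, had a median response of 1.95, and 0.60 without that library. In BAT all 12 of these markers had positive responses, with a median of 0.37. Their summed level ranged over 30.8 to 2451 scaled TPM in imeglimin BAT and 24.4 to 1390.5 in HFD BAT. Gpx3 without library 88 had a sWAT response of 1.44 and Apoe of 0.68, and the part of liver RNA in these values was not tested further.

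Shared changes outnumbered opposite ones when both tissues were required to move. With an unadjusted p under 0.05 in both tissues, 76 genes were higher in both (0.686%) and 98 lower in both (0.885%), while 48 were higher in BAT and lower in sWAT (0.433%) and 33 lower in BAT and higher in sWAT (0.298%). Without library 88 these numbers were 100 (0.906%), 97 (0.878%), 43 (0.389%) and 73 (0.661%). With no overlap between groups in either tissue there were 3 genes higher in both (0.0271%) and 14 lower in both (0.126%), against 4 of opposite sign. Beyond Me1, Scd2, Gpd1 and Pgd, the 14 included Cyb5b, an outer mitochondrial membrane cytochrome b5 gene (-0.45 in BAT and -0.74 in sWAT), the glycogen synthase gene Gys2 (-0.40 in BAT and -0.90 in sWAT) and Unc119 (-0.46 in BAT and -1.03 in sWAT). In BAT alone 3.91% of genes had no overlap and in sWAT alone 3.89%. Slc36a2, an amino acid transporter gene of adipocytes, was among those with an unadjusted p under 0.05 in both and opposite signs (0.18 in BAT and -0.65 in sWAT), and its response difference of 0.83 missed the threshold (limma adjusted p = 0.184).

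Several lists leaned to 1 side without calls. Of 12 fatty acid uptake genes tested, 11 had positive response differences, and 10 without scaling or without library 88, with medians of 0.091 in BAT and -0.31 in sWAT. Without library 88 the sWAT median was -0.11. The lipoprotein lipase gene Lpl had 0.18 in BAT and -0.51 in sWAT, and Gpihbp1, which encodes its anchor on capillaries, had 0.36 in BAT and -0.31 in sWAT. The 11 endothelial markers tested had positive differences too (median 0.44), 10 of them without scaling and 9 without library 88. Their summed level stood at 318 to 643 scaled TPM in imeglimin BAT and 339 to 397 in HFD BAT, and at 798 to 1455 in imeglimin sWAT and 1212 to 1876 in HFD sWAT. The 643 was BAT imeglimin library 91 alone, and the others of its group reached at most 353. The 798 was sWAT imeglimin library 88. Whether the share of endothelial cells had a part in the uptake genes was not tested. For comparison, over all genes 5293 of 11076 had a positive response difference.

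Nuclear oxidative phosphorylation genes had positive response differences for 26 of 31 (median 0.15), for 21 of 31 without library 88 (median 0.078) and for 13 of 31 without scaling, where the median of all genes was -0.16 and the list lay 0.14 above it. Of 13 mitochondrially encoded genes, 11 had positive differences (median 0.36), and reads of these can be shared with nuclear copies. All 30 cytosolic ribosomal protein genes had positive responses in both tissues with all libraries, and 27 of them without scaling. Without library 88 the list median in sWAT was -0.027, against 0.17 with it, and all 30 then had positive response differences (median 0.23). Without scaling 1 of the 30 had a positive difference, so the sign of this list depended on the scaling. No member of these 3 lists was called with all libraries, where the whole table had 4 calls. Without library 88 the ribosomal gene Rpl27 had a called response difference (0.38, limma adjusted p = 0.0489). An unadjusted p under 0.05 was then found for 20 of the 30 ribosomal genes, all positive, against 931 of 11043 genes on that side. In mean response 3 ribosomal genes and 1 nuclear oxidative phosphorylation gene were called higher, against 1.06% of all genes.

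No thermogenic or brown fat gene had a called response difference with all libraries. Of the 19 of 24 that were tested, 7 had positive and 12 negative response differences (median -0.084), and 0 were called by limma. At an unadjusted p under 0.05 there were 3 of each, against 7.47% of all genes on the positive side and 5.99% on the negative side. Without library 88, 10 were positive and 9 negative. Adrb1, the beta-1 receptor gene, averaged 6.09 ± 1.83 scaled TPM in imeglimin BAT and 9.50 ± 2.97 in HFD BAT, and 4.99 ± 1.34 in imeglimin sWAT and 2.86 ± 1.06 in HFD sWAT (SD, n = 5). Its response difference was -1.20 (limma adjusted p = 0.108), and -1.25 without library 88 (adjusted p = 0.04998). Adrb3, the beta-3 receptor gene of adipocytes, had 0.13 in BAT and 1.13 in sWAT, with a difference of -1.01 that missed the threshold (95% interval -1.75 to -0.26). Ebf2, a transcription factor gene of brown adipocytes, had -0.38 in BAT and 0.34 in sWAT, and the coactivator gene Ppargc1a had -0.19 in BAT and 0.30 in sWAT.

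Several triglyceride assembly genes had positive response differences, opposite in sign to that of Pck1, and these missed the threshold. Dgat1 and Dgat2 encode the acyltransferases of the last step: Dgat1 had 0.16 in BAT and -0.42 in sWAT, and Dgat2 had 0.15 in BAT and -0.78 in sWAT. The glycerol kinase gene Gk had 0.24 in BAT and -0.46 in sWAT, and the acyltransferase gene Agpat2 had -0.038 in BAT and -0.90 in sWAT. Without library 88 the sWAT responses were -0.31 for Dgat1, -0.50 for Dgat2, -0.50 for Gk and -0.74 for Agpat2. The limma adjusted p-values of their response differences were 0.155 to 0.249. Of the 14 genes of this list, 8 had positive and 6 negative differences, and without scaling 6 and 8. Among adipokines, Angptl8, which encodes an inhibitor of lipoprotein lipase, stood at 27.3, 22.7, 26.3, 20.6 and 22.4 scaled TPM in imeglimin BAT, against 20.6, 30.6, 20.2, 43.9 and 29.3 in HFD BAT, and at 49.6, 19.6, 7.85, 29.9 and 25 in imeglimin sWAT, against 78.6, 78.2, 55.5, 195 and 73.6 in HFD sWAT. The sWAT groups did not overlap, HFD library 80 was high, and the response difference of 1.67 (95% interval 0.64 to 2.70) missed the threshold (limma adjusted p = 0.196). Lep had -0.63 in BAT and -0.53 in sWAT, or -0.14 in sWAT without library 88, and the adiponectin gene Adipoq had 0.22 in BAT and -0.16 in sWAT, or 0.075 in sWAT without library 88.

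Insulin signalling genes had negative response differences for 17 of 21, against 5783 of 11076 genes, with medians of -0.013 in BAT and 0.13 in sWAT. Without scaling all 21 were negative, as were 8233 of 11075 genes. The unscaled list median relative to that of all genes was -0.20. Irs2, an insulin receptor substrate gene, had -0.090 in BAT and 0.73 in sWAT, and Mtor, whose kinase Deptor inhibits, had -0.40 in BAT and -0.031 in sWAT. Without library 88 the sWAT response was 0.82 for Irs2 and 0.049 for Mtor. Of this list 0 had a response difference called by limma with all libraries, and Deptor was the 1 with such a call without library 88. With all libraries an unadjusted p under 0.05 for the response difference was found for 4, all negative, against 5.99% of all genes on that side. In the circadian clock list 8 response differences were positive and 9 negative, or 2 and 15 without scaling. The unscaled median of the clock list relative to that of all genes was -0.014. The core clock gene Arntl had -0.39 in BAT and -0.088 in sWAT, or 0.012 in sWAT without library 88.

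**Figure D4:**
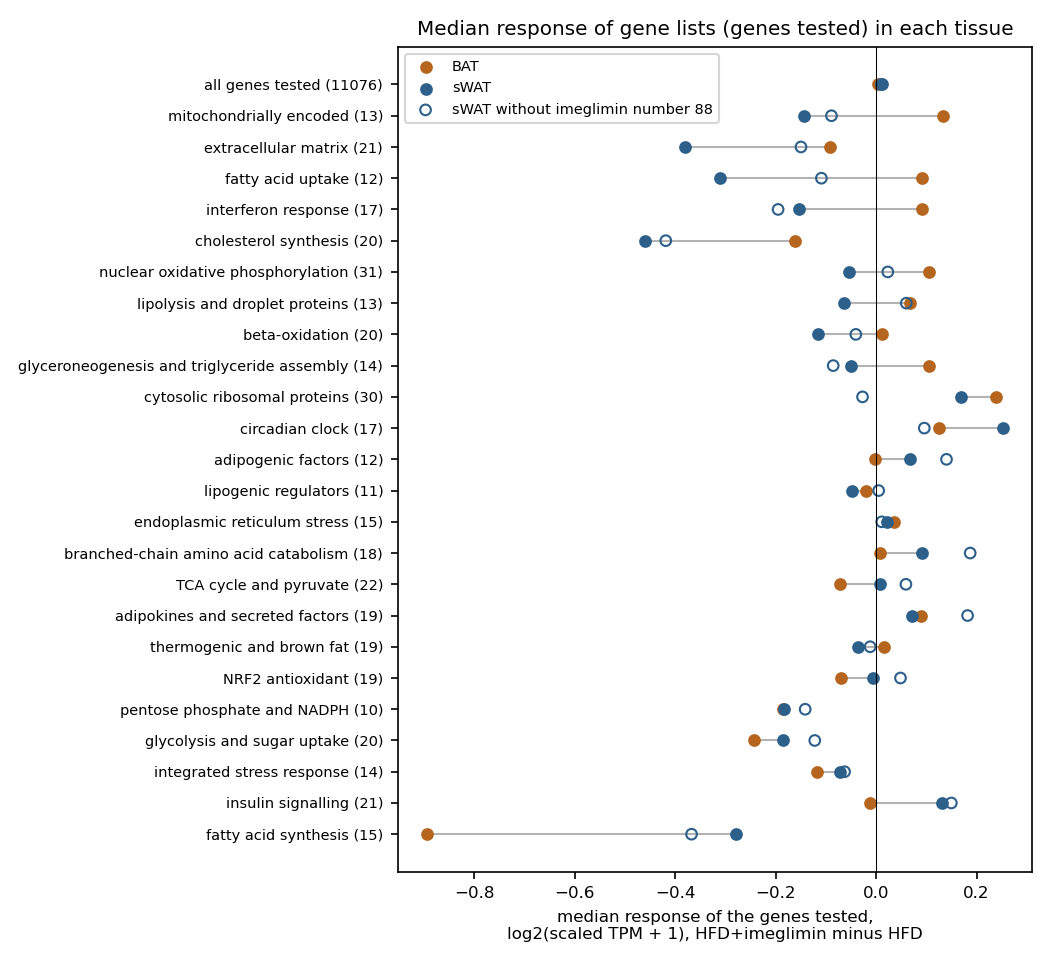
Median response of the genes tested in each list, in BAT (brown), in sWAT (blue) and in sWAT without imeglimin library 88 (open), as log2(scaled TPM + 1) with HFD and imeglimin minus HFD, with the number of genes tested in brackets. Fatty acid synthesis lies at -0.90 in BAT and -0.28 in sWAT, and the open and filled points of the ribosomal list lie on opposite sides of 0.

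The number of calls depended on single libraries. Leaving out 1 library at a time gave 0 to 101 calls for the response difference and 21 to 227 for the mean response. The response difference had 0 calls without BAT imeglimin library 89, 91 or 94, BAT HFD library 76 or 83, sWAT imeglimin library 89, or sWAT HFD library 76, 79 or 80. It had 101 without sWAT imeglimin library 88, 41 without BAT imeglimin library 88, 22 without sWAT imeglimin library 86, 14 without BAT imeglimin library 86 and 9 without BAT HFD library 75, and 1 to 5 without each of the others. The response differences of Gpd2 (-1.22 to -0.97) and Pck1 (-1.74 to -1.41) kept their sign in all settings tried, and each was called in 15 of 32.

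**Figure D5:**
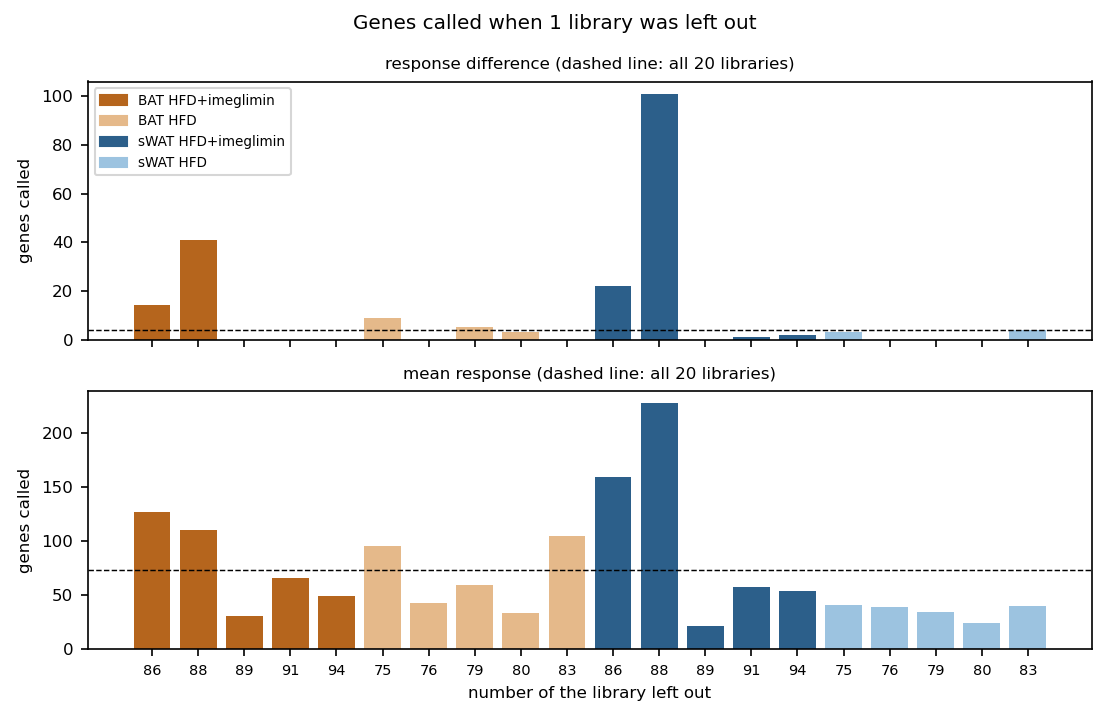
Number of genes called (y axis) when the library on the x axis was left out, for the response difference above and the mean response below, coloured by group. The dashed lines mark 4 and 73 calls with all 20 libraries, and the tallest bars, at 101 and 227, are those without sWAT imeglimin library 88.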

How the data were processed

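Libraries were directional and made from poly(A)-selected RNA with NEB reagents, per the labels' protocols. The tools STAR and RSEM and the build GRCm39 are named in the submitters' processing notes, while versions and filters were not given in the sources used here. What the authors deposited is TPM, which sum to 1000000 in each library over 55357 genes and keep no record of depth, so the depth is unknown and no counting interval can be given. No 2 of the 20 libraries were identical (highest correlation 0.989). No sample column was left out of the mapping to the labels, and the liver columns were not used in any comparison. Reads of near-identical genes, such as those with pseudogenes, may be divided between copies, and 79 symbols are carried by several gene identifiers.

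TPM were divided within each tissue by median-ratio factors (0.912 to 1.132), and log2(scaled TPM + 1) was fitted in each tissue alone with limma 3.58.1 in R 4.3.3, with a trended moderated variance. Fold changes on this scale understate those of low genes. The response difference and the mean response took their standard errors from both fits, taken as independent. Degrees of freedom followed Satterthwaite's formula. All tests were two-sided with Benjamini-Hochberg adjustment over all genes tested and a threshold of 0.05. Other steps used Python 3.11.15. The steps were tested on simulated data.

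Alternatives covered the scaling, the pseudocount (0.1), the minimum (a mean of 5 TPM, or none), the variance model, the number as a block, and leaving out libraries. Genes were named by a rule: the 12 of lowest p in each direction of the response difference, the 6 of each kind with the lowest p in both tissues for shared and for opposite changes, and up to 4 per list. Members of lists with a called mean response and a few further genes, such as Gpd1, Srebf1 and Lpl, were named after their values were seen. One gene that the rule names is not reported here. The members and the gene lists were chosen with earlier results of these data known.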

Additional observations from a re-analysis of the deposited data

Results flagged for a closer look

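Of 84 checks of single groups for 1 library far from the other 4, 7 were positive, where chance gives about 1 in 20, and 3 of the 7 were sWAT imeglimin library 88. That library had 9903 scaled TPM of Scd1, against 16074 to 17689 in the other imeglimin sWAT libraries, 1623 of summed B cell markers, against 2.09 to 4.26, and 19999.7 of summed hepatocyte markers, against 431 to 1704. Summed skeletal muscle markers were far from the rest in BAT imeglimin library 94 (6395, against 16.1 to 246) and BAT HFD library 79 (6174, against 114 to 826). HFD library 80 stood alone for C2 in BAT (0.813, against 1.81 to 2.06) and Angptl8 in sWAT (195, against 55.5 to 78.6).

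The limma test of the difference itself set apart the responses of BAT and sWAT for Gpd2 (-1.05), Abca2 (-0.76), Pck1 (-1.57) and Gpr135 (0.86), each with an adjusted p of 0.0327.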

How the results depend on the processing

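The 4 calls of the response difference and the 73 of the mean response were of the same order with upper-quartile scaling (4 and 75), a pseudocount of 0.1 (4 and 74) and a robust variance (4 and 74). Without scaling there were 57 (3 positive, 54 negative) and 239 (30 higher, 209 lower), with 110 calls in BAT and 2 in sWAT, and all genes had a median response difference of -0.16. A mean of 5 TPM gave 9 for the difference and 0 in sWAT, no minimum gave 0, 37 for the mean and 0 in BAT, no variance trend gave 2 in sWAT, and a spread pooled over tissues gave 0 for the difference. Without BAT libraries 79 and 94 there were 0 for the difference, 41 for the mean and 0 in BAT, and without sWAT library 88 as well 0, 114 and 0. Single libraries left out gave 0 to 101 for the difference, 21 to 227 for the mean, 0 to 83 in BAT and 0 to 2 in sWAT. The mitochondrial share's difference was 1.21 to 2.20 points, with an exact permutation p of 0.0312 without BAT HFD library 83 and 0.0473 without sWAT HFD library 76. The cause of these shifts was not tested. Samples with the same number correlated at -0.476 to 0.362 (6 of 10 above 0.1, 6 of 10 best with their own number). The labels do not say what a number marks, so the main fits did not pair the samples. These correlations do not settle whether a number marks the same mouse in both tissues. If it does, the main fits leave that pairing out. With the number as a replicate block there were 2 calls of each kind, without library 88 as well 0 and 1, and the share had an exact permutation p of 0.119. With the depth unknown, its limits cannot be given.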

Other observations

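Interferon response genes, which were outside the comparisons above, had positive response differences for 15 of 17 tested, with medians of 0.092 in BAT and -0.15 in sWAT, and for 16 of 17 without sWAT library 88. None was called by limma, 2 had an unadjusted p under 0.05, and without scaling 13 of 16 were positive. Extracellular matrix genes were lower with imeglimin in both tissues for 13 of 21 tested and lower in sWAT for 20, with medians of -0.092 in BAT and -0.38 in sWAT, or -0.15 in sWAT without library 88. Fatty acid oxidation genes had positive response differences for 14 of 20 with all libraries, 10 of 20 without library 88 and 9 of 20 without scaling, with 0 calls by limma and 3 at an unadjusted p under 0.05. Branched-chain amino acid catabolism leaned the other way, with negative response differences for 13 of 18 genes tested and 16 of 18 without library 88 (median -0.16). By limma there were 0 calls either way. An unadjusted p under 0.05 was found for 1 with all libraries and for 5 without library 88, on the negative side. Over all genes such a p was found for 13.5% in either direction with all libraries. Without library 88 it was found for 973 of 11043 genes on the negative side.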
